A study of Saccharomyces cerevisiae with 10 samples.

Results

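4 cultures of budding yeast (Saccharomyces cerevisiae) lacking SUA5, all sampled at the first restreaking, fell into 2 pairs that differed in whether the metabolic genes LYS2 and MET17 were expressed. Clones 3 and 4 had an intensity above 1000 for both genes, and clones 1 and 2 had an intensity under 100 for both. The pairs were chosen by these values of LYS2 and MET17, so 4 of the 10 arrays of the series are described here, 2 on each side, and the difference between the pairs is given without a test. With 2 arrays against 2, an exact permutation test could not give a two-sided p under 0.333.

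The first-restreaking clones (titles sua5D 1st-3 and 1st-4, and sua5D 1st-1 and 1st-2) carried the sua5 deletion and came from dissected spores of the diploid BY4743, with mating type a, sampled about 35 generations after sporulation. The arrays set beside them were 3 of the same deletion after the 12th restreaking, about 300 generations after sporulation and also of mating type a, and 3 of BY4742, labelled wild type, a laboratory haploid with intact SUA5 and mating type alpha. All were grown in rich liquid medium (YPD) to mid-log phase, and total RNA was hybridised to 1 Affymetrix yeast array per culture. The design text calls the clones of a group independent, but no label says which spore or tetrad a clone came from or which nutritional markers it carries.

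LYS2 encodes alpha-aminoadipate reductase, a step of the lysine pathway, and MET17 (also called MET15) encodes the sulfhydrylase that joins sulfide to O-acetylhomoserine on the way to methionine. BY4743 is known to carry a deletion of each gene on 1 of its homologous chromosomes, so that its haploid spores can carry or lack each of them. Cells without LYS2 or MET17 take up lysine or methionine from rich medium. Lysine genes are known to be switched on by Lys14 together with the pathway intermediate alpha-aminoadipate semialdehyde, which Lys2 makes, and sulfur genes by Met4 with Cbf1, Met31 and Met32.

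The deletion was checked first. SUA5 read 3.17 and 1.2 in clones 3 and 4, 0.342 and 5.1 in clones 1 and 2, and 506 to 532 on the wild-type arrays. It was under the background limit of the array, the percentile 95 of probe sets for another yeast, Schizosaccharomyces pombe, in all 4 clones. That limit lay between 11.3 and 13.9 in the 4 clones, and 98.9% to 99.1% of the 5449 genes were above it. The median intensity of the genes was 649 to 666 in the 4 clones. The a-specific genes were expressed in both pairs. STE2, the alpha-factor receptor, read 2112 and 2071 in clones 3 and 4, 1751 and 1857 in clones 1 and 2, and 57.4 to 70.1 in the wild type. The alpha-factor gene MF(ALPHA)1 read 10.8 to 15.99 in the 4 clones. Its mean in the wild type was 12.39 on the log2(intensity + 16) scale.

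LYS2 (YBR115C, chromosome II) read 2953 and 2890 in clones 3 and 4, against 15.6 and 9.34 in clones 1 and 2. The level in clones 1 and 2 lay close to the background limit, above it in clone 1 and below it in clone 2. The wild type, in which LYS2 read 11.1, 17.4 and 10.9, was below its own limit on all 3 arrays. MET17 (YLR303W, chromosome XII) read 4898 and 4662 in clones 3 and 4, against 10.004 and 15.3 in clones 1 and 2. In the wild type MET17 averaged 4250 ± 114 (SD, n = 3), near the level of clones 3 and 4. The log2 differences between the pairs were 6.70 for LYS2 and 7.39 for MET17, and their size rests on values of clones 1 and 2 that lie near the background. Only clones 3 and 4 therefore read far above background for both genes, while the wild type did so for MET17 alone and clones 1 and 2 for neither. The arrays do not tell a gene that is absent from one that is silent.

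The arrays of the 12th restreaking resembled clones 1 and 2 in these genes, although not evenly. LYS2 read 53.7, 29.3 and 10.8 on the 3 arrays, which is 1.84%, 1.0% and 0.371% of its mean level in clones 3 and 4. MET17 read 96.9, 30.6 and 8.09, or 2.03%, 0.64% and 0.169% of that level. Replicate 1 was highest and replicate 3 lowest for both genes. In RNA of a whole culture, fewer cells with the gene on and less of its RNA in each cell cannot be told apart. The 12th restreaking and the wild type took no part in choosing the pairs and were tested with limma over all 5449 genes, of which 78.3% changed (41.1% higher and 37.2% lower at the 12th restreaking). MET17 fell by 6.41 on the log2 scale (adjusted p = 1.45e-08, limma). LYS2 did not pass (log2 difference 0.60, adjusted p = 0.0585). These groups also differ in SUA5, in mating type and in the number of generations, which cannot be told apart here.

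HIS3, LEU2 and URA3, the other usual markers of these strains, did not follow the pairs. HIS3 read 3775 and 3691 in clones 3 and 4, against 3414 and 3762 in clones 1 and 2. LEU2 read 18.9 and 3.65 in clones 3 and 4, against 5.5 and 26.2 in clones 1 and 2, and URA3 read 7.33 or less in all 4 clones. The pairs overlapped for each of the 3 genes. URA3 was under the background limit in all 4 clones, and LEU2 lay on both sides of it. The labels do not say whether these 3 markers could differ between spores, or whether the HIS3 signal comes from an intact gene.

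The genes beside LYS2 and MET17 on the chromosome were expressed in both pairs. RAD16, a DNA repair gene, read 524 and 522 in clones 3 and 4, against 546 and 531 in clones 1 and 2. On the other side of LYS2, the transketolase gene TKL2 read 802 and 846 in clones 3 and 4, against 1538 and 1392 in clones 1 and 2, 1.76-fold lower in clones 3 and 4 on the log2(intensity + 16) scale used for all folds here. TKL2 read 1274, 1332 and 1129 at the 12th restreaking and 122 to 140 in the wild type, so its levels did not follow those of LYS2 across the groups. Beside MET17, the aconitase gene ACO1 read 3670 and 3697 in clones 3 and 4, against 3640 and 3916 in clones 1 and 2, with overlap. HRI1 read 859 and 941 in clones 3 and 4, against 779 and 736 in clones 1 and 2. Near MET17, ECM38, EXG1 and UBC12 were also higher without overlap (1.04-fold, 1.22-fold and 1.21-fold), and STT4 overlapped. Near LYS2, CYC8 and TEF2 were lower without overlap (1.16-fold and 1.07-fold), and SUS1 and MUD1 overlapped. Of all genes 25.1% were higher and 20.9% lower. Of the 12 measured genes within 3 places of LYS2 or MET17, TKL2 alone differed by 1.5-fold. CDA1, the fourth from MET17, was 2.15-fold higher in clones 3 and 4.

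**Figure D1:**
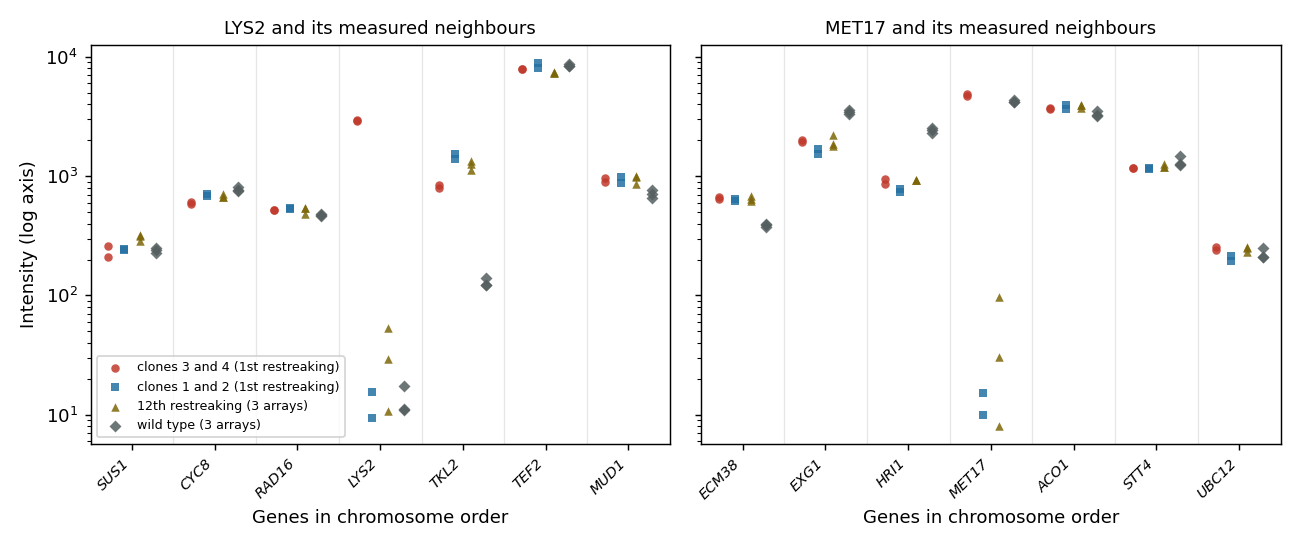
Intensity (log axis) of LYS2, MET17 and the 3 nearest measured genes on either side, in chromosome order, with 1 point per array. LYS2 is 2953 and 2890 in clones 3 and 4 and at most 53.7 on every other array, while MET17 is at least 4176 in clones 3 and 4 and in the wild type and at most 96.9 in clones 1 and 2 and at the 12th restreaking. The neighbours are expressed on all arrays.

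Across all genes the members of a pair were as alike as replicates of the other groups, and the pairs differed about as much as either did from the 12th restreaking. The SD over genes of the log2 difference was 0.121 between clones 3 and 4 and 0.136 between clones 1 and 2. It was 0.111 to 0.134 between arrays of the 12th restreaking and 0.141 to 0.171 between wild-type arrays. Between the pairs it was 0.217 to 0.236. Against the 12th restreaking it was 0.217 to 0.256 for clones 3 and 4 and 0.205 to 0.229 for clones 1 and 2, and against the wild type it was 0.787 to 0.83 and 0.817 to 0.855. The pairs thus differed from each other far less than either did from the wild type, with a median absolute log2 difference of 0.073 between the pairs, 0.383 between clones 3 and 4 and the wild type and 0.39 between clones 1 and 2 and the wild type.

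Few genes differed much between the pairs. A gene was counted as separated where its mean differed at least 2-fold and the arrays of the pairs did not overlap. By this rule 6 of 5449 genes were higher in clones 3 and 4 (0.11%) and 3 were lower (0.0551%). With a limit of 1.5-fold, 23 were higher (0.422%) and 30 lower (0.551%). Within the pairs, no gene differed 2-fold, and 10 genes between clones 3 and 4 and 14 between clones 1 and 2 differed 1.5-fold. The largest gap within a pair was 1.96-fold. Without overlap but of any size, 1367 genes were higher (25.1%) and 1137 lower (20.9%). Leaving out clone 3 left 1 gene 2-fold lower, and leaving out clone 4 gave 5 genes 2-fold lower and 48 lower by 1.5-fold. All these shares describe the contrast that chose the pairs, and nothing is read from their size. Genes separated by between 1.5-fold and 2-fold are named below although the limit was lowered after their values were seen. LYS9, CDA1 and YIG1 lay nearest the 2-fold limit, with log2 differences of 0.995 (just under it), 1.10 and -1.02.

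**Figure D2:**
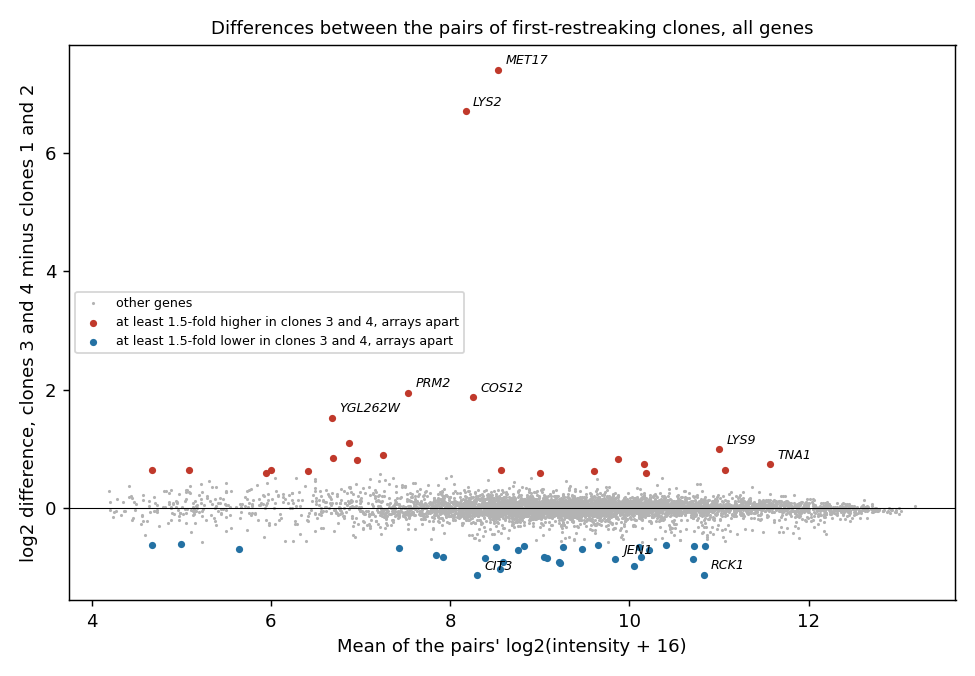
Difference between the pairs for each of 5449 genes (log2, clones 3 and 4 minus clones 1 and 2) against the mean of both pairs on the log2(intensity + 16) scale. Coloured points are the 23 genes higher and the 30 genes lower by at least 1.5-fold with no overlap. LYS2 and MET17 lie apart at log2 differences of 6.70 and 7.39, and the next is PRM2 at 1.95.

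Most other genes of the lysine pathway were higher in the pair that expressed LYS2. Of its 9 measured genes, 7 were higher in clones 3 and 4 without overlap (25.1% of all genes were), 1 was lower and 1 overlapped, and the median log2 difference was 0.50, against 0.01 over all genes. LYS2 is among the 7 and chose the pairs, and without it 6 of 8 were higher, with a median of 0.39. LYS9, which makes saccharopine from the product of Lys2, read 2919 and 2832 in clones 3 and 4, against 1518 and 1355 in clones 1 and 2. That is 1.99-fold higher in clones 3 and 4, which lay above the 8 other arrays. LYS20, the homocitrate synthase that opens the pathway, read 2762 and 2571 in clones 3 and 4, against 1771 and 1645 in clones 1 and 2 (1.56-fold). Its paralog LYS21 read 2446 and 2355 in clones 3 and 4, against 2161 and 2070 in clones 1 and 2, and so differed less (1.13-fold).

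LYS4, homoaconitase, read 1396 and 1424 in clones 3 and 4, against 923 and 939 in clones 1 and 2 (1.51-fold). LYS1, the last enzyme of the pathway, read 1510 and 1584 in clones 3 and 4, against 1148 and 1026 in clones 1 and 2 (1.42-fold). Both genes were apart between the pairs. The wild type, in which LYS2 read below background, had LYS4 at the level of clones 1 and 2 (960 ± 75.4, SD, n = 3) but LYS1 far below either pair (440 ± 25.1). LYS12, homoisocitrate dehydrogenase, was 1.21-fold higher in clones 3 and 4. LYS5, which activates the Lys2 protein, read 799 and 740 in clones 3 and 4, against 837 and 851 in clones 1 and 2, and ARO8, an aminotransferase shared with the aromatic pathway, overlapped.

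LYS14, the activator of the lysine genes, read 1447 and 1432 in clones 3 and 4, against 1147 and 1037 in clones 1 and 2 (1.31-fold higher). Of the 8 measured lysine regulators and transporters 3 were higher, 2 lower and 3 overlapped (25.1% of all genes were higher and 20.9% lower), with a median log2 difference of 0.02. LYP1, the lysine permease, read 3065 and 2836 in clones 3 and 4, against 2769 and 3114 in clones 1 and 2. At the 12th restreaking LYS9 and LYS20 read 1230 ± 15.9 and 836 ± 6.6 (SD, n = 3), below both pairs and below the wild type (1789 ± 102 and 1536 ± 36.9). LYS20 and LYS9 fell by 0.87 and 0.53 on the log2 scale against the wild type (adjusted p = 5.92e-09 and 9.84e-07, limma), and LYS4 did not pass (log2 difference -0.09, adjusted p = 0.205). LYS2 reached the level of clones 3 and 4 in no other group, although 2 of the 3 arrays of the 12th restreaking read above background, so the higher level of the lysine genes in clones 3 and 4 has no second set of samples in which it could be tested.

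**Figure D3:**
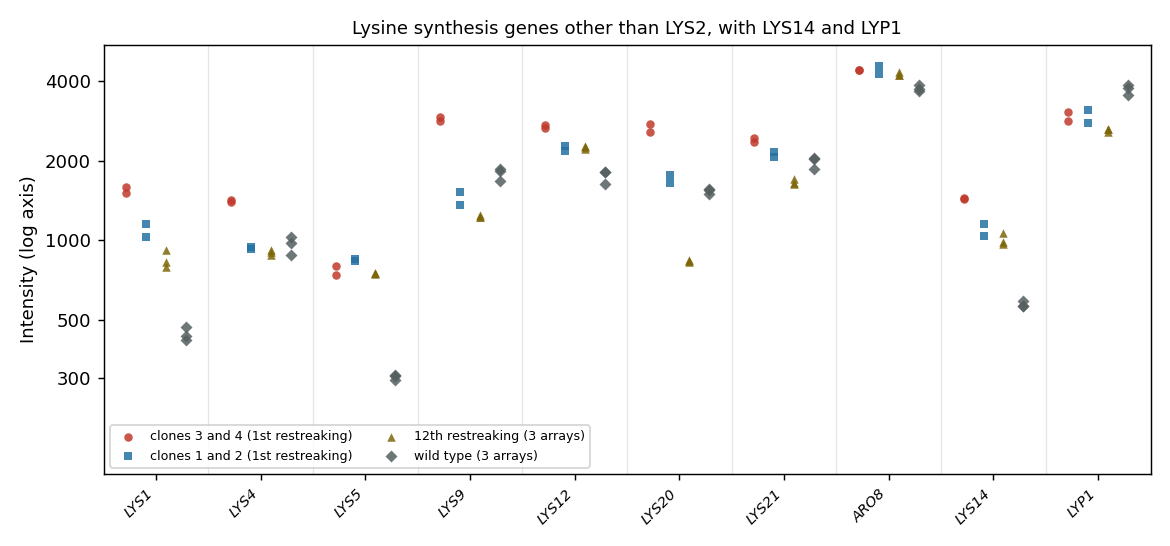
Intensity (log axis) of 8 lysine synthesis genes, the activator gene LYS14 and the lysine permease gene LYP1, with 1 point per array. Clones 3 and 4 lie above clones 1 and 2 for LYS1, LYS4, LYS9, LYS12, LYS20, LYS21 and LYS14, below them for LYS5, and overlap with them for ARO8 and LYP1.

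Sulfur genes other than MET17 differed little, and those of sulfate assimilation mostly in the other direction. Of 12 sulfate assimilation genes 8 were lower in clones 3 and 4, 1 was higher and 3 overlapped (20.9% and 25.1% of all genes), with a median log2 difference of -0.15. None reached 1.5-fold. SUL2, a sulfate permease, read 303 and 336 in clones 3 and 4, against 416 and 501 in clones 1 and 2 (1.41-fold lower). MET3, ATP sulfurylase, read 539 and 552 in clones 3 and 4, against 656 and 715 in clones 1 and 2 (1.25-fold lower).

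MET2 makes O-acetylhomoserine, the substrate of Met17. It read 596 and 666 in clones 3 and 4, against 966 and 981 in clones 1 and 2, 1.53-fold lower in clones 3 and 4. Of 14 measured methionine and cysteine genes 2 were higher (MET17 and IRC7), 5 lower and 7 overlapped, with a median log2 difference of -0.04. Of 6 sulfur regulators 3 were lower and none higher. MET28 and MET32, which help Met4 to bind, were 1.24-fold and 1.22-fold lower, while MET4, MET31 and CBF1 overlapped. The S-adenosylmethionine cycle had 1 gene higher and 2 lower of 9, and sulfur permeases and scavenging genes 3 higher and 4 lower of 14, beside 25.1% and 20.9% of all genes.

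MET17 was low at the 12th restreaking and high in the wild type, and MET2 was tested there. MET2 read 544, 790 and 761 at the 12th restreaking, against 299, 213 and 294 in the wild type (log2 difference 1.32, adjusted p = 3.0e-06, limma). Of the 12 sulfate assimilation genes 9 rose and 2 fell at the 12th restreaking, beside 41.1% and 37.2% of all genes. MET3 did not pass (adjusted p = 0.657). MET2 was also higher in clones 3 and 4, which express MET17, than in the wild type, by 2.29-fold (3.51-fold in clones 1 and 2). The clones and the wild type differ in SUA5 and mating type as well, and the cause of the MET2 level was not tested.

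Genes for growth on carbon sources other than glucose were mostly lower in clones 3 and 4. Of 23 genes of gluconeogenesis, the glyoxylate cycle, acetate and fatty acid use, 18 were lower, none was higher and 5 overlapped (20.9% and 25.1% of all genes), with a median log2 difference of -0.34. The acetate transporter gene ADY2 read 1167 and 1281 in clones 3 and 4, against 2231 and 2223 in clones 1 and 2 (1.81-fold lower). The lactate transporter gene JEN1 read 634 and 695 in clones 3 and 4, against 1142 and 1304 in clones 1 and 2 (1.82-fold lower). ACS1, acetyl-CoA synthetase, read 1718 and 1789 in clones 3 and 4, against 2657 and 2475 in clones 1 and 2 (1.46-fold lower).

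Peroxisomal fatty acid oxidation genes shared the direction. POX1, the acyl-CoA oxidase, read 319 and 323 in clones 3 and 4, against 554 and 518 in clones 1 and 2 (1.64-fold lower), and the thiolase gene POT1 and the peroxisomal catalase gene CTA1 were 1.43-fold and 1.76-fold lower. CAT2, carnitine acetyltransferase, was 1.53-fold lower. CAT8, which encodes an activator of gluconeogenic genes, read 449 and 603 in clones 3 and 4, against 795 and 684 in clones 1 and 2 (1.41-fold lower). The enzymes specific to gluconeogenesis and the glyoxylate cycle were divided. MLS1, malate synthase of the glyoxylate cycle, read 28.8 and 41.7 in clones 3 and 4, against 62.2 and 48.4 in clones 1 and 2 (1.40-fold lower). PCK1, which makes phosphoenolpyruvate, read 544 and 578 in clones 3 and 4, against 615 and 584 in clones 1 and 2, and ICL1 and MDH2 overlapped.

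The largest difference of all genes lower in clones 3 and 4 was in CIT3, the citrate synthase isoenzyme of propionate breakdown. CIT3 read 187 and 207 in clones 3 and 4, against 454 and 442 in clones 1 and 2 (2.18-fold lower). Its chromosomal neighbour PDH1, which acts next in the methylcitrate cycle, read 374 and 465 in clones 3 and 4, against 757 and 848 in clones 1 and 2 (1.89-fold lower). Of 21 genes of the TCA cycle and its retrograde control, CIT3 and PDH1 included, 12 were lower, 1 was higher and 8 overlapped (20.9% and 25.1% of all genes), with a median log2 difference of -0.09. SDH1, of succinate dehydrogenase, read 707 and 750 in clones 3 and 4, against 891 and 890 in clones 1 and 2 (1.22-fold lower), and IDH2, KGD1, KGD2, ACO1 and FUM1 were among the overlapping genes. GDH3, the glutamate dehydrogenase isoform used on such carbon sources, read 733 and 744 in clones 3 and 4, against 1569 and 1383 in clones 1 and 2 (1.97-fold lower).

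Of all 5449 genes, 340 were higher in clones 1 and 2 than on every other array of the series. By at least 1.5-fold this held for 8 of them, CIT3, GDH3, RCK1, ADY2, JEN1, PDH1, POX1 and RGI2. All but RCK1 and RGI2 are described above. At the 12th restreaking CIT3 read 90.1, 107 and 103, below both pairs, and JEN1 read 427, 535 and 511. In the wild type JEN1 read 22.2, 41.7 and 40.7, so that its level was 13.6-fold the wild-type level in clones 3 and 4 and 24.7-fold in clones 1 and 2. For CIT3 the levels were 3.90-fold and 8.51-fold that of the wild type, so the difference between the pairs was a larger part of the distance there. At the 12th restreaking 19 of the 23 genes rose against the wild type and none fell (41.1% and 37.2% of all genes, limma).

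**Figure D4:**
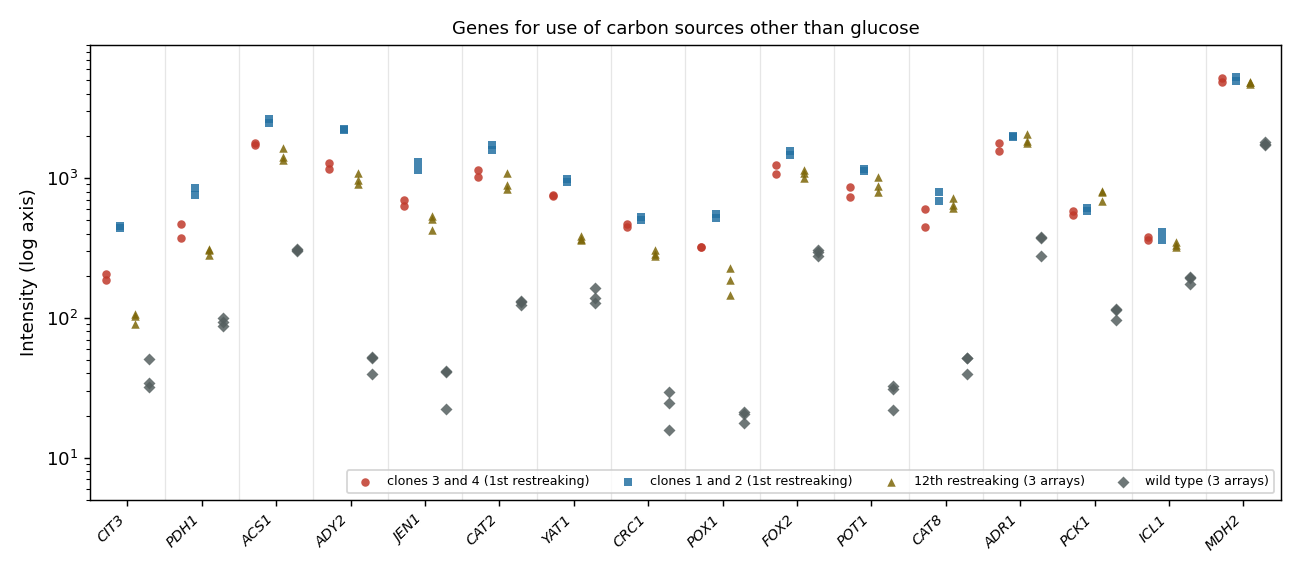
Intensity (log axis) of 16 genes for use of propionate, acetate, lactate, carnitine, fatty acids and gluconeogenic substrates, with 1 point per array. Clones 1 and 2 are above clones 3 and 4 for CIT3 through ADR1 in the order shown and for PCK1, and the pairs overlap for ICL1 and MDH2. The wild type is lowest for each gene shown.

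General stress genes were lower in clones 3 and 4 by small amounts. Of 39 genes controlled by Msn2 and Msn4, 32 were lower, none higher and 7 overlapped (20.9% and 25.1% of all genes), with a median log2 difference of -0.19. Only TKL2, the cytochrome c isoform gene CYC7 and the glycogen phosphorylase gene GPH1 reached 1.5-fold. CYC7 read 512 and 571 in clones 3 and 4, against 866 and 894 in clones 1 and 2 (1.61-fold lower). At the 12th restreaking CYC7 read 889, 1004 and 1013, near or above clones 1 and 2, and in the wild type 133 to 174. Among genes lower in clones 3 and 4 and the wild type than in clones 1 and 2 and the 12th restreaking, CYC7 had the widest gap (1.504-fold). Heat shock genes had 2 higher and 6 lower of 20 (25.1% and 20.9% of all genes).

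Of 15 stationary phase and desiccation genes 9 were lower in clones 3 and 4 and 2 higher (20.9% and 25.1% of all genes), with a median log2 difference of -0.29. The protein kinase gene RCK1 read 1116 and 1322 in clones 3 and 4, against 2571 and 2748 in clones 1 and 2 (2.17-fold lower), and 35.6 to 74.0 in the wild type. YIG1, which encodes a protein that binds glycerol 3-phosphatase, read 224 and 269 in clones 3 and 4, against 616 and 428 in clones 1 and 2 (2.03-fold lower). Transporters were also among the lower genes. HXT5, a hexose transporter of slow growth, was 1.63-fold lower in clones 3 and 4, the glycerol symporter gene STL1 1.56-fold and the proline permease gene PUT4 1.55-fold. The sodium-phosphate cotransporter gene PHO89 read 375 and 389 in clones 3 and 4, against 702 and 672 in clones 1 and 2 (1.77-fold lower), while the phosphate regulon had 8 genes higher and 5 lower of 21. The iron regulon had 4 genes higher and 12 lower of 29 (25.1% and 20.9% of all genes), and its cell wall mannoprotein gene FIT2 was 1.78-fold lower.

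Besides LYS2 and MET17, the 4 genes separated 2-fold in the other direction were PRM2, COS12, YGL262W and CDA1. PRM2, a pheromone-regulated membrane protein gene, read 359 and 336 in clones 3 and 4, against 83.5 and 73.5 in clones 1 and 2 (3.85-fold higher). It read 52.1 to 55.5 at the 12th restreaking and 36.9 to 49.6 in the wild type, so clones 3 and 4 stood apart from the 8 other arrays. LYS2 and PRM2 were the only genes that did so by 2-fold, and no gene lay 1.5-fold below the 8 other arrays in clones 3 and 4. Other pheromone response genes did not share the size of the PRM2 difference, with 7 of 19 higher and 2 lower and a median log2 difference of 0.10 (25.1% and 20.9% of all genes were higher and lower). MFA1, an a-factor gene, read 1450 and 1470 in clones 3 and 4, against 832 and 906 in clones 1 and 2 (1.67-fold higher), and its partner MFA2 differed 1.23-fold.

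CDA1, a chitin deacetylase of the spore wall, read 164 and 145 in clones 3 and 4, against 70.4 and 57.0 in clones 1 and 2 (2.15-fold higher). CDA1 is the fourth measured gene from MET17 on chromosome XII. The sporulation kinase gene SPS1 was 1.79-fold higher and SSP1, of the forming spore membrane, 1.55-fold. Other meiosis and sporulation genes were lower without overlap. SLZ1 was 1.60-fold lower, CSM4 1.61-fold, DMC1 1.26-fold and ECM11, near the background limit, 1.52-fold. A list of 24 meiosis and sporulation genes had 10 higher and 3 lower (25.1% and 20.9% of all genes), with a median log2 difference of 0.08. That list does not hold CDA1, SLZ1, CSM4 or ECM11.

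2 genes of nicotinic acid metabolism were higher in clones 3 and 4. TNA1, the nicotinic acid permease, read 3940 and 3883 in clones 3 and 4, against 2289 and 2373 in clones 1 and 2 (1.67-fold higher). It read 2197 to 2218 at the 12th restreaking and 1849 to 2016 in the wild type, so that clones 1 and 2 were near both. BNA2, which opens the pathway from tryptophan to NAD, read 974 and 926 in clones 3 and 4, against 617 and 605 in clones 1 and 2 (1.54-fold higher). Over the 16 genes of a list of NAD synthesis and uptake, drawn up after these values were seen, 7 were higher and 5 lower (25.1% and 20.9% of all genes), with a median log2 difference of 0.05. The IMP dehydrogenase gene IMD2, of guanine nucleotide synthesis, read 1223 and 1239 in clones 3 and 4, against 702 and 672 in clones 1 and 2 (1.77-fold higher), and the 15 purine genes as a list had a median of 0.03.

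COS12 and YGL262W are the 2 outermost measured genes at the left end of chromosome VII. COS12, of a family of membrane protein genes found near chromosome ends, read 574 and 562 in clones 3 and 4, against 152 and 135 in clones 1 and 2 (3.67-fold higher). YGL262W, of unknown function, read 168 and 149 in clones 3 and 4, against 43.3 and 45.9 in clones 1 and 2 (2.88-fold higher). The next genes inward, YPS5 and YGL258W-A, were 1.40-fold and 1.87-fold higher, ADH4 and ZRT1 were 1.19-fold and 1.18-fold higher, and FZF1 and HXK2 overlapped. Of the 10 outermost genes there 7 were higher and 1 lower, with a median log2 difference of 0.25. This was the highest median of the 32 chromosome ends, and the end was singled out after its values were seen. Over the 320 outermost genes of all ends 104 were higher and 65 lower (25.1% and 20.9% of all genes), with a median log2 difference of 0.02.

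At this chromosome end clones 1 and 2 were the pair that stood apart among the deletion arrays. COS12 read 512 to 524 at the 12th restreaking, close to clones 3 and 4, and 39.5 to 50.4 in the wild type. YGL258W-A read 181 to 197 at the 12th restreaking, against 194 and 191 in clones 3 and 4 and 98.4 and 92.2 in clones 1 and 2. COS12 and YGL262W were the only genes at least 2-fold lower in clones 1 and 2 than on the 5 other deletion arrays. All 8 measured COS genes were higher in clones 3 and 4 without overlap (25.1% of all genes were), with a median log2 difference of 0.19, and COS12 alone by 1.5-fold. Members of this family are close in sequence, so a probe set may read more than 1 of them.

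**Figure D5:**
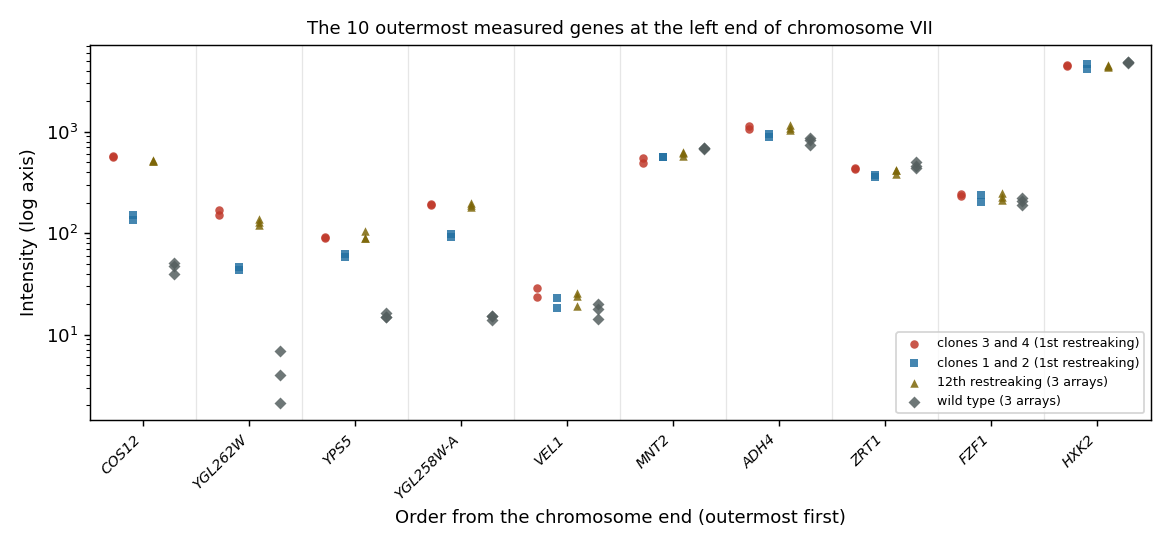
Intensity (log axis) of the 10 outermost measured genes at the left end of chromosome VII, outermost first, with 1 point per array. For COS12, YGL262W, YPS5 and YGL258W-A, clones 3 and 4 and the 12th restreaking are higher than clones 1 and 2, and the wild type is lowest. From VEL1 inward the groups lie closer together.

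Among the genes separated by 1.5-fold, the side on which the 12th restreaking lay differed with the direction of the gene. Of the 23 genes higher in clones 3 and 4 by 1.5-fold, the mean of the 12th restreaking was nearer to clones 3 and 4 for 6 and nearer to clones 1 and 2 for 17. Of the 30 genes lower in clones 3 and 4, it was nearer to clones 3 and 4 for 22 and nearer to clones 1 and 2 for 8. In both directions the 12th restreaking was thus more often near the lower pair among these genes, which the contrast of the pairs selected. The 23 include LYS2 and MET17, which chose the pairs, and both were nearer to clones 1 and 2. No such count was made over all genes. The wild type was nearer to clones 1 and 2 for 20 of the 23 and nearer to clones 3 and 4 for 27 of the 30. Of the 30 genes lower in clones 3 and 4, 26 were higher at the 12th restreaking than in the wild type and 2 were lower (41.1% and 37.2% of all genes, limma).

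Gene lists for growth and the cell cycle showed little difference between the pairs. Of 47 lists with at least 5 measured genes, 36 had a median log2 difference between -0.09 and 0.08. Ribosomal proteins of the large subunit had a median of -0.01 and those of the small subunit 0.04, ribosome biogenesis genes 0.06, respiratory chain genes -0.03 and amino acid genes controlled by Gcn4 0.02. G1/S genes had 8 members higher and 5 lower of 27 (25.1% and 20.9% of all genes). G2/M and M/G1 genes had 10 higher and 0 lower of 22, with a median of 0.05. Ribosome biogenesis genes had 11 higher and 1 lower of 36. Telomerase and telomere protein genes had 5 higher and 3 lower of 21, and KEOPS and t6A genes, the pathway of Sua5, 2 higher and none lower of 9. Medians of whole chromosomes differed little as well. They ranged from -0.004 to 0.03 on the log2 scale over 16 chromosomes, and those of chromosomes II and XII, which carry LYS2 and MET17, were -0.004 and 0.02.

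Over the 10 arrays the genes whose log2 levels were most like those of LYS2 were TNA1, PRM2, LYS4, YFR057W (near or under the background limit on every array) and SPS1 (Pearson r between 0.91 and 0.953), and for MET17 they were OPT2, RPC31, FAT3, UTP7 and RPC19 (between 0.906 and 0.944). Most of the spread of LYS2 and MET17 lies between arrays with the gene high and the rest, so these values mainly describe how the groups of arrays are ordered. OPT2, of the oligopeptide transporter family, read 140 and 157 in clones 3 and 4, against 81.1 and 74.1 in clones 1 and 2 (1.76-fold higher). Apart from MET17, it alone was at least 1.5-fold higher in clones 3 and 4 and the wild type than in clones 1 and 2 and the 12th restreaking. It fell by 1.14 on the log2 scale at the 12th restreaking against the wild type (adjusted p = 1.15e-06, limma).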

How the data were processed

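Per the labels' protocols, biotin-labelled total RNA was hybridised to 1 Affymetrix yeast array per culture. The deposited values are linear intensities per probe set. No source used here names the software that summarised the probes or how values were corrected for background. The mean of each array, leaving out 2% at each end, was 500.2, so the deposited intensities are taken as scaled per array by the authors. Of 10928 probe sets, 7244 have 1 annotated gene, and 5498 of these matched a gene of the R64 RefSeq gene table. The other 1746 are for S. pombe and gave the background limit. The probe set with the highest mean stood for each of 5449 genes. No coordinates are given because the files name no build.

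Values were taken as log2(intensity + 16). The pairs were set by the sample titles, from a rule that used LYS2 and MET17. Members and lists were chosen with earlier results of these data known. Named were LYS2, MET17, SUA5, the other markers, the 3 nearest genes on either side, the lysine and sulfur lists, up to 15 genes separated 2-fold in each direction, up to 3 separated members of other lists and the 5 genes most like LYS2 and MET17. Genes between 1.5-fold and 2-fold, the NAD list and the end of chromosome VII were added after values were seen. Not every gene so chosen is printed. The 12th restreaking and wild type were compared with limma 3.58.1 in R 4.3.3 (lmFit and eBayes with an intensity trend on these 6 arrays, two-sided, Benjamini-Hochberg over all genes, threshold 0.05). Nothing in the labels says how the cultures of a group relate beyond calling the clones independent, so p-values measure only the spread between these arrays. Both procedures were tested on simulated data. The alternatives were other scalings, 1 or 64 added before log2, a limit on dim genes and leaving out each array. The number of arrays limits the precision.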

Additional observations from a re-analysis of the deposited data

Results flagged for a closer look

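Among 136 genes looked at across the 4 first-restreaking arrays (the genes separated by 1.5-fold, the markers with their neighbours, and the lysine and sulfur lists), 3 had 1 array far from the other 3. The limit used flags about 1 in 20 unselected genes by chance. That rate does not apply here, because the genes separated by 1.5-fold were chosen for arrays split 2 against 2. In each of the 3 flagged genes clone 2 was the high array. The methionine synthase gene MET6 read 5097 in clone 2, against 4395 and 4378 in clones 3 and 4 and 4475 in clone 1. The glutathione transporter gene OPT1 read 810 in clone 2, against 717 and 711 in clones 3 and 4 and 702 in clone 1. TEF2, a translation elongation factor gene, read 8932 in clone 2, against 7928 and 7911 in clones 3 and 4 and 8028 in clone 1. None of the 3 differed by 1.5-fold between the pairs.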

How the results depend on the processing

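The direction of the 52 genes separated by 1.5-fold and above background in 1 pair was the same in all 416 values from 8 alternatives (4 scalings or added numbers and leaving out each clone). These genes were chosen for arrays that do not overlap, so another added number or a clone left out could not reverse their direction. The count is therefore no measure of robustness. Counts depended on the settings. With 1 added before log2 the genes separated 2-fold were 12 higher and 7 lower, and with 64 added 1 was lower. With a limit of 1.5-fold they were 23 and 30, and with a limit of 3-fold 0 were lower. Leaving out a clone gave 5 to 8 higher and 1 to 5 lower at 2-fold, with 1 lower without clone 3 and 5 without clone 4, and 22 to 28 higher and 25 to 48 lower at 1.5-fold, with 48 without clone 4. At 1.5-fold the higher genes were 38 with 1 added, 14 with 64 added and 15 among genes with a mean intensity of at least 100. The median of sulfate assimilation genes, -0.15, was -0.18 after quantile normalization, -0.17 with 1 added, and -0.18 to -0.12 when a clone was left out. The medians of the lysine, carbon and stress lists moved within 0.42 to 0.58, -0.38 to -0.28 and -0.27 to -0.18 when a clone was left out. For the 12th restreaking against wild type, 2242 genes rose and 2025 fell. A replicate block on the array numbers gave 2231 and 2010, and deviations of same-numbered arrays correlated at -0.01, -0.08 and 0.04, so the numbers do not pair the arrays. With array medians set equal, 1882 rose and 2404 fell. The cause of these shifts was not tested.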

Other observations

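The probe sets with no gene name, 3517 without controls, held 1 that was separated 2-fold, higher in clones 3 and 4. It read 871 and 867 in clones 3 and 4, against 402 and 449 in clones 1 and 2. At the 12th restreaking it read 644 to 789 and in the wild type 366 to 373, an order of the groups like that of COS12. At 1.5-fold 9 such probe sets were higher and 22 lower. Of the 1746 S. pombe probe sets, which should find no target in these cells, none was separated 2-fold, 3 were higher and 12 lower by 1.5-fold. Of the 5449 genes 23 were higher (0.422%) and 30 lower (0.551%) by this rule. Probe sets lower by 1.5-fold were thus a larger share of both these sets than of the genes, and higher ones a smaller share.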
